A study of Homo sapiens with 18 samples.

Results

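The 9 genes of the PAX family, PAX1 to PAX9, were followed together with PAX8-AS1, a long noncoding RNA transcribed from the strand opposite to PAX8. The family was taken by gene name, so that these 10 genes are all of its members among the 57133 genes of the count table, and PAX8-AS1 was selected on its counts in this table, which were nearly lost in both PCGF6-KO clones. RNA-seq had been done on PGP1, an established human induced pluripotent stem cell (iPSC) line grown without feeder cells. Wild-type cells (WT, 2 libraries) were compared with 2 PCGF6-KO clones (2 libraries each), which had been made with Cas9 and a pair of guide RNAs against the first exon of PCGF6 and carry different deletions on both alleles. Each knockout line is 1 clone, all cells were otherwise untreated, and nothing in the labels says whether the libraries of a group came from separate cultures, so the p-values measure the spread between these libraries, which may be technical. PCGF6 is a subunit of a Polycomb repressive complex that also holds the DNA-binding proteins MAX and E2F6.

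PAX proteins are transcription factors with a DNA-binding paired domain, and they act in the specification of organs and tissues in the embryo. They fall into 4 subfamilies by sequence. PAX1 and PAX9 act in the sclerotome and the pharyngeal pouches, PAX2, PAX5 and PAX8 act in kidney, midbrain, B cells, thyroid and inner ear, PAX3 and PAX7 act in dorsal neural tube, neural crest and muscle progenitors, and PAX4 and PAX6 act in pancreatic islets and, for PAX6, in the eye and forebrain. PAX proteins work with EYA and DACH proteins and with homeobox proteins such as SIX4 in a shared network. Pluripotent stem cells are not known for high levels of any of them.

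On GRCh38 and in GENCODE release 44, PAX8 lies on chr2:113215997-113278921 on the minus strand and PAX8-AS1 on chr2:113211421-113276581 on the plus strand, so that most of each gene lies within the other. Their exons have 1651 bases in common, in 6 blocks, which is 22.4% of the exon bases of PAX8 and 7.47% of those of PAX8-AS1. In that release PAX8 has 7371 exon bases and PAX8-AS1 has 22105. The lengths deposited with the counts were 7400 and 17274, so the exons counted, and the bases they share, may differ from these. The strand setting of the read counting is not stated, and reads from the shared blocks cannot be assigned to one gene or the other from these counts. PAX3, on chr2:222199887-222298998, is on the minus strand of the same chromosome. PAX7 is on chr1:18630846-18748866, PAX2 on chr10:100735396-100829944, PAX5 on chr9:36833269-37034268, PAX6 on chr11:31784779-31817961, PAX9 on chr14:36657568-36679362, PAX1 on chr20:21705659-21718481 and PAX4 on chr7:127610292-127618142.

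The sequences around the start sites of PAX3, the member with the largest gain, of PAX8 and PAX8-AS1, and of PAX5 are shown because the complex to which PCGF6 belongs is known to reach DNA through MAX and E2F6. Each window runs from 250 bases before to 50 bases after a RefSeq start (GRCh38.p14), 5′ to 3′ on the strand of the gene, in lower case. Both PAX8-AS1 windows lie inside the GENCODE span of that gene. The span begins at chr2:113211421, and no window covered that end. Capitals mark the E2F6 motif GCGGGAA on either strand in the windows of PAX5 and PAX8, and a repeated unit in the second window of PAX8-AS1.
PAX8-AS1 window 1 (chr2:113235277-113235576, plus strand): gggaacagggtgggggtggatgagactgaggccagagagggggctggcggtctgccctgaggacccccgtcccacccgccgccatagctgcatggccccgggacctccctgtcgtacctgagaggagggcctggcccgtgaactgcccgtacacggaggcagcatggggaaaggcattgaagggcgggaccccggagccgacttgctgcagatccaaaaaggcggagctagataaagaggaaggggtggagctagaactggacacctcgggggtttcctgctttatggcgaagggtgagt
PAX8-AS1 window 2 (chr2:113236019-113236318, plus strand): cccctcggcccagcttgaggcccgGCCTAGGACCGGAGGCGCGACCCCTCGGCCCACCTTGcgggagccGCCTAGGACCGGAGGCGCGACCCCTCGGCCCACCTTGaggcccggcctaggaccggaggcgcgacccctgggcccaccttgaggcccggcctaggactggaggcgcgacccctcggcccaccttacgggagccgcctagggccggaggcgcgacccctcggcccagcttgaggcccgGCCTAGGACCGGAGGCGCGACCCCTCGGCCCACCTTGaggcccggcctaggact
PAX8 (chr2:113278872-113279171, minus strand): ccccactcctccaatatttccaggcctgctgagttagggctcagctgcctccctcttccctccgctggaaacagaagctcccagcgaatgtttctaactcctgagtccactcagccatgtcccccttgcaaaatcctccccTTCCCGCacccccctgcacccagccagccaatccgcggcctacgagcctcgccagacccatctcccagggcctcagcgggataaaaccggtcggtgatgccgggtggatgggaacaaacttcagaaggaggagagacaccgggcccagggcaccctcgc
PAX3 (chr2:222298949-222299248, minus strand): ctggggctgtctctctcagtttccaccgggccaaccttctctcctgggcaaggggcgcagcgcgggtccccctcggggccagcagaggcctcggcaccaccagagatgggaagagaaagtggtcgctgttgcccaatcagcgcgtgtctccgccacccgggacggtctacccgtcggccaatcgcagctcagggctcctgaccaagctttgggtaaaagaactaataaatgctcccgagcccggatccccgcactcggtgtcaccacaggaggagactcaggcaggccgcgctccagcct
PAX5 (chr9:37034219-37034518, minus strand): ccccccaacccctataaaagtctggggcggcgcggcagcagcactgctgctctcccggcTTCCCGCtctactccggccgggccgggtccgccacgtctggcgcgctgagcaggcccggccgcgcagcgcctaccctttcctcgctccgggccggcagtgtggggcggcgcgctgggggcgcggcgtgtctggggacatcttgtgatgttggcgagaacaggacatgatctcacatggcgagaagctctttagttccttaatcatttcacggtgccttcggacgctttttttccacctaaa
Windows were found for 9 of the 10 members, all but PAX1. The E-box CACGTG, the letters that MAX recognises, was in 0 windows of the members, against 7.26% of all 35116 windows. GCGGGAA was in the window of PAX5 and in that of PAX8, 1 copy each, and in 6.55% of all windows. The second PAX8-AS1 window held 3 exact copies of the 37-base unit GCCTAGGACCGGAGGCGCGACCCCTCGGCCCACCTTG. A stretch of 20 bases present 3 times or more was in 1.17% of all windows. A letter match is a description and not evidence of binding.

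The libraries held between 15877396 and 18918609 counts. PCGF6 itself had 268 and 300 counts in the WT libraries, 99 and 103 in clone 1 and 187 and 159 in clone 2. It was lower in PCGF6-KO (difference on the log2 scale −1.15, adjusted p = 0.00914 by the quasi-likelihood test of edgeR, and 0.0511 and 0.0763 without the first or the second WT library). This count covers the whole gene and does not show the deletion itself. Of 7 pluripotent stem cell markers, POU5F1 and NANOG among them, 0 were called in either direction by edgeR or by DESeq2, where a call needed both an adjusted p below 0.05 and a log2 fold change beyond 0.6 in size. At an unadjusted p under 0.05, 2 were higher and 3 lower. By adjusted p alone in edgeR, 1 was higher and 3 were lower, and these missed a call only through the threshold of 0.6. Their summed level was 6800 to 7100 CPM (the count of a gene scaled to library size) in WT and 5950 to 6110 CPM in PCGF6-KO, the first range being above the second.

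The PAX family as a whole had few reads in WT iPSCs and more in both clones. The summed level of PAX1 to PAX9 was 4.73 CPM in each WT library, 16.4 and 18.8 CPM in clone 1 and 24.4 and 26.5 CPM in clone 2, so the groups did not overlap. In WT, PAX9 held 62.3% (95% Wilson interval 51.2 to 72.3%) of the 77 family counts in one library and 62% (51 to 71.9%) of the 79 in the other. In PCGF6-KO, PAX3 held 65.2% (59.7 to 70.2%) and 63.5% (58.2 to 68.4%) of the family counts in clone 1 and 67.4% (62.9 to 71.6%) and 69.9% (65.4 to 74%) in clone 2. The corresponding PAX3 share was 2.6% (0.715 to 8.98%) in the first WT library and 0 of 79 counts in the second, where the interval reaches 4.64%. Without PAX3, the family level was 4.61 and 4.73 CPM in WT, 5.7 and 6.88 CPM in clone 1 and 7.94 and 7.98 CPM in clone 2. These intervals, and those of the ratios given for single genes, are at 95% and cover counting error only.

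**Figure D1:**
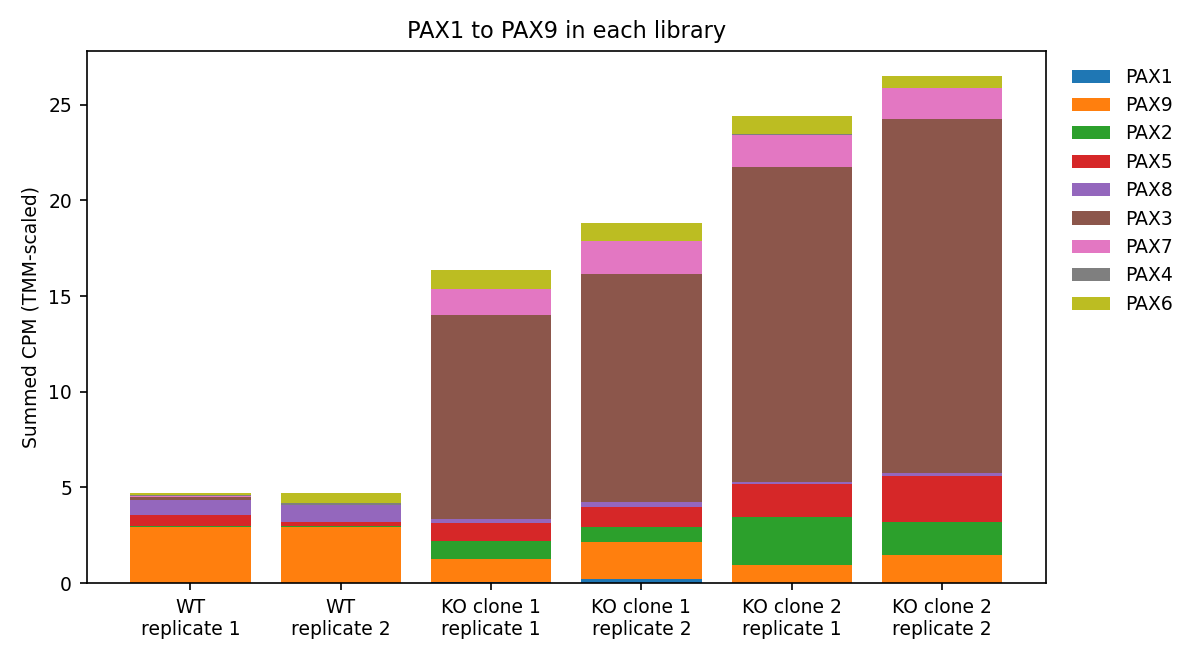
Summed CPM of PAX1 to PAX9 in each of the 6 libraries, stacked by gene. WT libraries stand at 4.73 CPM and are mostly PAX9, and the 4 PCGF6-KO libraries stand between 16.4 and 26.5 CPM and are mostly PAX3.

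Of the 9 PAX genes, 7 had enough counts to be tested, and PAX1 and PAX4 had not. Compared with WT, 4 were called higher in PCGF6-KO (PAX2, PAX3, PAX5 and PAX7), beside 14.9% of all 17672 tested genes, and 2 were called lower (PAX8 and PAX9), beside 8.7% of all tested genes. PAX6 was not called. The filter on low counts asked for at least 0.577 CPM, or 10 counts at the median depth. All 4 genes called higher, and PAX6, reached that level in 0 WT libraries and passed only through PCGF6-KO, and PAX8 reached it in 0 PCGF6-KO libraries and passed only through WT. PAX9 alone reached it in all 6 libraries. The counts of PAX genes called in either direction therefore say nothing about the family. In clone 1 against WT, 5 were called higher, PAX6 being the additional gene, and 2 lower, beside 16% and 8.8% of all tested genes. In clone 2 against WT, 4 were called higher and 2 lower, beside 16.9% and 12.5% of all tested genes. Both clones were set against the same 2 WT libraries. In RNA from whole cultures, more cells that express a gene and more RNA per cell cannot be told apart.

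**Figure D2:**
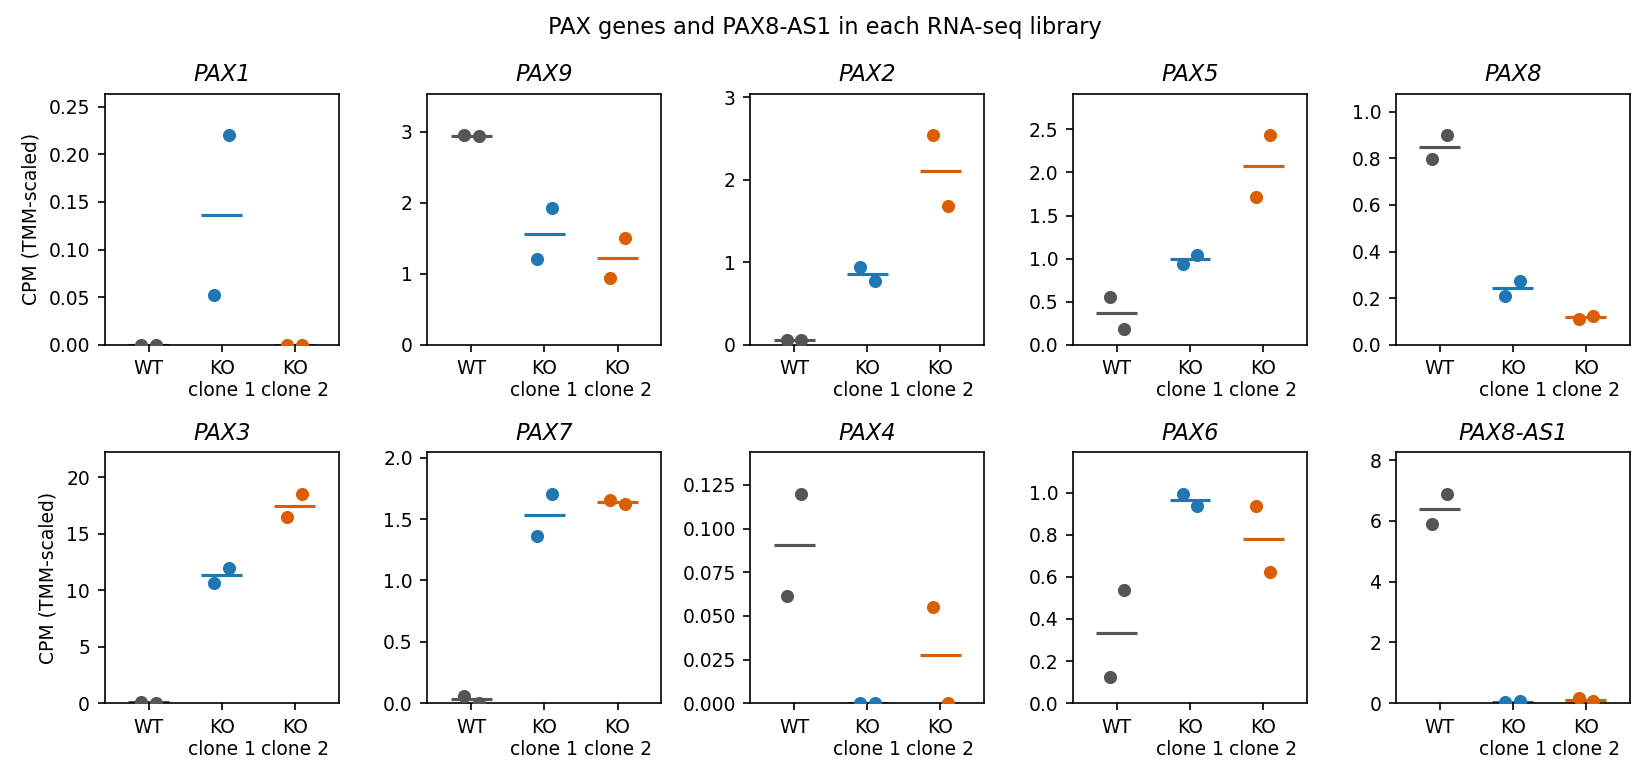
CPM of each PAX gene and of PAX8-AS1 in the WT, clone 1 and clone 2 libraries, 1 point per library and each panel on its own scale from 0. PAX2, PAX3, PAX5 and PAX7 are higher in all 4 PCGF6-KO libraries than in both WT libraries, and PAX8, PAX9 and PAX8-AS1 are lower. PAX6, which was not called, is also higher in all 4, by a narrow margin.

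PAX3, a regulator of neural crest and of muscle progenitors, showed the largest difference of the family. It had 2 and 0 counts in the WT libraries, 204 and 217 in clone 1 and 298 and 297 in clone 2. All PCGF6-KO libraries were far above WT, and those of clone 2 above those of clone 1. The summed counts, scaled by library size, were 234 times as high in PCGF6-KO as in WT, with an interval from 64.7 to 1940 that is wide because WT held 2 counts in all. The fitted log2 fold change was 7.73 ± 0.56 (SE, adjusted p = 1.15e-05 by edgeR), and it was 10.99 without the first WT library and 6.79 without the second, which held the 0. Clone 2 was above clone 1 by 0.63 ± 0.13 on the log2 scale (adjusted p = 0.00128 by edgeR). That difference fell below the threshold of 0.6 without the first clone 1 library (0.55) or without the second clone 2 library (0.54).

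PAX7, the other member of that subfamily, had 1 and 0 counts in the WT libraries, 26 and 31 in clone 1 and 30 and 26 in clone 2. The clones overlapped each other and were above WT in every library. The ratio of PCGF6-KO to WT was 52.1 (interval 9.17 to 2080), and the fitted log2 fold change was 5.41 ± 0.62 (adjusted p = 0.000177 by edgeR), with 7.81 and 4.54 when the first or the second WT library was left out. Unlike for PAX3, no difference between the clones was called (log2 fold change 0.10 ± 0.34, adjusted p = 0.886 by edgeR), and the counting interval of the ratio of clone 2 to clone 1 ran from 0.728 to 1.58. Whether the difference between clones was itself unequal for PAX3 and PAX7 was not tested. Per exon length, PAX3 was at 1.81 ± 0.47 RPKM (SD, n = 4) in PCGF6-KO and PAX7 at 0.251 ± 0.024 RPKM.

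PAX2, PAX5 and PAX8 make up 1 subfamily and did not move together. PAX2, which acts in kidney, optic stalk and midbrain, had 1 count in each WT library, 18 and 14 in clone 1 and 46 and 27 in clone 2. Each group stood apart from the others. PAX2 was 24.2 times as high in PCGF6-KO as in WT (interval 6.54 to 203), with a log2 fold change of 4.45 ± 0.85 (adjusted p = 0.0034 by edgeR). PAX5, known for its role in B-cell commitment and in the midbrain, had 9 and 3 counts in the WT libraries, 18 and 19 in clone 1 and 31 and 39 in clone 2, again without overlap between groups. It was 4.11 times as high in PCGF6-KO as in WT (interval 2.26 to 8.21), with a log2 fold change of 2.04 ± 0.59 (adjusted p = 0.0242 by edgeR). The value was 3.03 without the first WT library (adjusted p = 0.0435 by edgeR) and 1.45 without the second (adjusted p = 0.183 by edgeR), and the call was lost in the latter case. In clone 1 alone PAX5 was called (1.43, adjusted p = 0.0255 by edgeR), but not without the second WT library, without the second clone 1 library or with DESeq2 (adjusted p from 0.0724 to 0.278).

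PAX8, which acts in thyroid and kidney, went the other way. It had 13 and 15 counts in the WT libraries, 4 and 5 in clone 1 and 2 in each clone 2 library, and the groups did not overlap. It was 4.67 times as high in WT as in PCGF6-KO (interval 2.34 to 9.82), with a log2 fold change of −2.18 ± 0.46 (adjusted p = 0.00577 by edgeR). Without the second WT library the value was −2.09 with an adjusted p of 0.0683 by edgeR. Against WT, the log2 fold change was −1.78 (adjusted p = 0.0105 by edgeR) in clone 1 and −2.79 (adjusted p = 0.000965 by edgeR) in clone 2. The call in clone 1 was lost without either WT library, without the first clone 1 library and with DESeq2, and those adjusted p ranged from 0.0545 to 0.182.

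PAX8-AS1, which overlaps PAX8 and was chosen for this pattern, had 96 and 115 counts in the WT libraries, 1 in each clone 1 library and 3 and 1 in clone 2. Its levels are given as a description with no test against WT. The mean level was 6.39 ± 0.70 CPM (SD, n = 2) in WT and 0.0838 ± 0.055 CPM (SD, n = 4) in PCGF6-KO. WT was 76.2 times as high as PCGF6-KO by counts (interval 34.4 to 210). The level in clone 1 was 0.00838 of that in WT (0.00101 to 0.0306) and in clone 2 0.0183 of it (0.00494 to 0.0475). Since the gene was chosen for its loss in these same counts, the intervals against WT describe counting error and are no test of that loss. The clones themselves were not called different (log2 fold change 1.03 ± 1.09, adjusted p = 0.575 by edgeR), with so few counts that the ratio of clone 2 to clone 1 could lie between 0.313 and 24.1, and the fold change was 0.19 without the first clone 2 library. The gene next to the pair, PSD4, was not called (47 and 34 counts in the WT libraries, 42 and 42 in clone 1, 43 and 33 in clone 2, log2 fold change −0.14, adjusted p = 0.681 by edgeR). PAX8 and PAX8-AS1 thus had fewer counts in the same libraries, and how many of the PAX8 counts came from the exon bases that both genes hold was not tested.

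**Figure D3:**
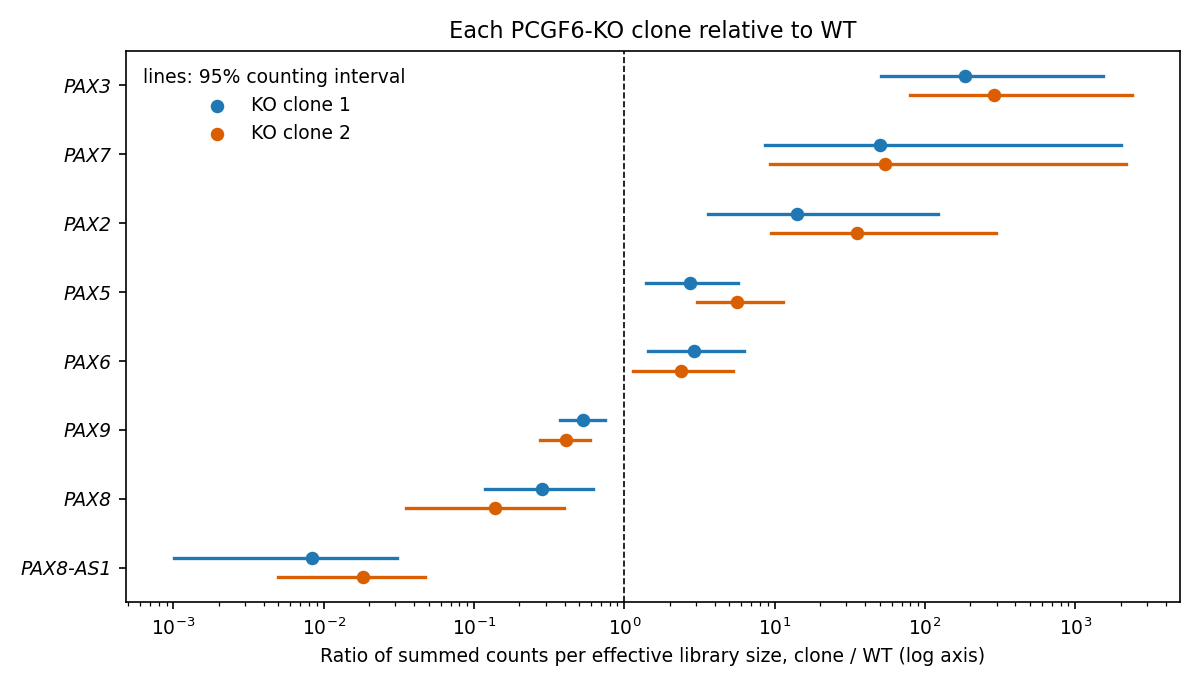
Ratio of summed counts, scaled by library size, of each PCGF6-KO clone to WT on a log axis, with lines for the 95% counting interval and a dashed line at 1. PAX3 has ratios of 186 (clone 1) and 287 (clone 2), while PAX8, PAX9 and PAX8-AS1 lie below 1 in both clones. PAX8-AS1 was chosen for its loss in these counts, so its intervals are no test of it.

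PAX9, which acts in pharyngeal pouches, teeth and the sclerotome, had the most counts of PAX1 to PAX9 in WT. It had 48 and 49 counts in the WT libraries, 23 and 35 in clone 1 and 17 and 24 in clone 2, so that WT stood above every PCGF6-KO library while the clones overlapped. WT was 2.12 times as high as PCGF6-KO (interval 1.59 to 2.84), with a log2 fold change of −1.08 ± 0.29 (adjusted p = 0.0186 by edgeR). Without either WT library the fold change was the same and the adjusted p was 0.102 or 0.103 by edgeR. In clone 1 alone it was −0.91 (adjusted p = 0.0141 by edgeR, and 0.0526 to 0.167 without either WT library, without the first clone 1 library or with DESeq2), and in clone 2 −1.29 (adjusted p = 0.00143 by edgeR). SLC25A21, which encodes a mitochondrial carrier, lies on the opposite strand and holds 1442 bases of the PAX9 exons (25.4%). It had 111 and 118 counts in the WT libraries, 92 and 69 in clone 1 and 46 and 35 in clone 2 (log2 fold change −1.05 ± 0.29, adjusted p = 0.0201 by edgeR, and 0.0986 or 0.121 without one WT library). Reads from the exon bases that PAX9 and SLC25A21 share cannot be assigned to one gene or the other. Their part in the PAX9 difference was not tested. PAX1, the other member of the subfamily, had 0 counts in both WT libraries and in clone 2 and 1 and 4 counts in clone 1. The 0 counts in WT allow a level of up to 0.091 CPM, the value of 3 counts over both libraries.

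PAX6, a regulator of eye, forebrain and islet development, had 2 and 9 counts in the WT libraries, 19 and 17 in clone 1 and 17 and 10 in clone 2. The lowest PCGF6-KO library was 1 count above the higher WT library. The log2 fold change was 1.38 ± 0.53 (adjusted p = 0.0714 by edgeR), and the outcome turned on the WT libraries. It was 0.69 (adjusted p = 0.401 by edgeR) without the first WT library and 2.77 (adjusted p = 0.0344 by edgeR) without the second. Taken as the mean of the 2 clones in a fit with 3 groups, the adjusted p was 0.025. In clone 1 alone PAX6 was called (1.51, adjusted p = 0.026 by edgeR), and that call was lost without the first WT library (adjusted p = 0.328 by edgeR), without the first clone 1 library (0.0713) and with DESeq2 (0.187). In clone 2 the value was 1.22 (adjusted p = 0.0805 by edgeR). ELP4, on the opposite strand, holds 25.4% of the PAX6 exon bases and was not called (log2 fold change −0.44, adjusted p = 0.0217 by edgeR). It had 254 and 255 counts in WT and 173 to 234 in PCGF6-KO. Reads from the bases shared with ELP4 cannot be assigned either, and their part in the PAX6 counts was not tested. PAX4, an islet regulator, had 1 and 2 counts in the WT libraries, 0 in both clone 1 libraries and 1 and 0 in clone 2, too few for a comparison.

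Between the clones, 3 of the 7 tested PAX genes were higher in clone 2 than in clone 1, beside 3.73% of all tested genes. By edgeR 0 were lower, also at an unadjusted p under 0.05, beside 4.14% of all tested genes, and 0 were lower by DESeq2. The genes were PAX3, given above, PAX2 (log2 fold change 1.30 ± 0.36, adjusted p = 0.0116 by edgeR) and PAX5 (1.05 ± 0.37, adjusted p = 0.0468 by edgeR). The counts of PAX2 in clone 2 were 2.49 times those in clone 1 after scaling (interval 1.62 to 3.9), and for PAX5 the ratio was 2.06 (1.37 to 3.16). PAX3 alone was also called by DESeq2, which gave adjusted p of 0.201 for PAX2 and 0.32 for PAX5. The PAX2 call was lost without the second clone 1 library (adjusted p = 0.0679 by edgeR) or the first clone 2 library (0.188). The PAX5 call was lost without the first clone 1 library (adjusted p = 0.156 by edgeR), the second (0.0946) or the second clone 2 library (0.3). For PAX6, PAX8 and PAX9 no difference between clones was called, and the counting intervals of clone 2 to clone 1 ran from 0.478 to 1.39, from 0.109 to 1.74 and from 0.504 to 1.17.

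Levels per exon length put the members in a different order in WT and in PCGF6-KO. In WT the order was led by PAX9 at 0.487 ± 0.0014 RPKM (SD, n = 2), PAX8-AS1 at 0.37 ± 0.041 RPKM and PAX8 at 0.115 ± 0.0096 RPKM, and these 3 did not overlap one another or the next gene. PAX5, PAX4, PAX6, PAX2, PAX3 and PAX7 followed at 0.0049 to 0.039 RPKM, each overlapping its neighbour in the order, and PAX1 was at 0. In PCGF6-KO, PAX3 came first and stood clear of the others at 1.34 to 2.33 RPKM over the 4 libraries. PAX7, PAX2, PAX9 at 0.23 ± 0.07 RPKM (SD, n = 4) and PAX5 at 0.164 ± 0.074 RPKM overlapped one another over the 4 libraries, but their order differed by clone. In clone 1 the mean levels ran from PAX9 at 0.259 RPKM and PAX7 at 0.243 RPKM to PAX2 at 0.137 RPKM and PAX5 at 0.106 RPKM, PAX7 and PAX2 not overlapping. In clone 2 they ran from PAX2 at 0.338 RPKM and PAX7 at 0.259 RPKM to PAX5 at 0.222 RPKM and PAX9 at 0.202 RPKM. PAX6 at 0.0419 ± 0.0081 RPKM was below PAX5 without overlap, and PAX8, PAX1, PAX8-AS1 and PAX4 made up the low end with overlapping values.

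Around the members, 25 other genes of the table lay within 100 kb, and 11 of them were tested. Of these, 1 was called higher, beside 14.9% of all tested genes, and 1 lower, beside 8.7% of all tested genes. The gene called higher was CCDC140, which starts beside PAX3 on the opposite strand and has 852 bases of its span but 0 exon bases in common with it. It had 0 counts in both WT libraries, 11 and 9 in clone 1 and 17 and 7 in clone 2 (adjusted p = 0.00374 by edgeR). CCDC140 passed the filter on low counts only through PCGF6-KO and could be called in 1 direction only. The gene called lower was SLC25A21. SLF2, the single gene of the table this close to PAX2, had 643 and 730 counts in WT and 691 to 783 in PCGF6-KO and was not called (log2 fold change −0.03, adjusted p = 0.846 by edgeR).

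The genes whose pattern over the 6 libraries came closest to a member were found by the root mean square difference of centred log2(CPM + 1) values, among all tested genes. For PAX3 they were SPON1 (0.087), which had 85 counts in each WT library and 1372 to 1764 in PCGF6-KO, FGF4 (0.0888), which encodes a growth factor and had 23 and 26 counts in WT and 464 to 718 in PCGF6-KO, and LINC01356 (0.101). For PAX8-AS1 they were GPR176 (0.11), a G-protein-coupled receptor gene with 1921 and 1970 counts in WT and 269 to 341 in PCGF6-KO, CCDC177 (0.129) and STXBP5L (0.142). For PAX8 they were SIX4 (0.024), AMPD3 (0.0292) and PWWP2A (0.0419), but the values of PAX8 spanned just 0.774 on this scale. Adding 1 CPM compresses low genes, so PAX3 spanned 4.29 and PAX8-AS1 2.91, and the genes nearest to all 3 members match these compressed values rather than the full ratios.

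A list of 12 partner genes, which holds EYA and DACH genes and homeobox genes such as SIX4, was read next. Of the 10 tested, 5 were called higher in PCGF6-KO, 1 lower and 4 were not called, and the median log2 fold change was 0.88, against 0.00 over all tested genes. DACH1, a transcriptional corepressor, rose from 14 and 5 counts in WT to between 217 and 238 in PCGF6-KO (difference on the log2 scale 4.46, adjusted p = 6.27e-06 by edgeR, and 5.39 without the first WT library). EYA1, a phosphatase and coactivator, rose from 44 and 35 counts to between 103 and 212 (1.84, adjusted p = 0.00153 by edgeR). SIX4, a homeobox gene, fell from 853 and 962 counts to between 524 and 682 (−0.69, adjusted p = 0.000405 by edgeR). Without the second WT library, 3 of the list and not 5 were called higher. The summed level of the list was 122 to 124 CPM in WT and 123 to 132 CPM in PCGF6-KO.

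Lists for the tissues in which PAX genes act were counted next, to be read beside the 14.9% of all tested genes called higher and the 8.7% called lower. As with the PAX genes, many list genes reached the level of the filter in 0 WT libraries and could be called in 1 direction only, which also sets the list medians. This held for 5 of the 12 neural crest genes called higher, 7 of the 10 of paraxial mesoderm, 5 of the 8 of kidney, 3 of the 5 of the islet and 2 of the 5 partner genes, and for 729 of the 2630 called higher in all. In the neural plate border and neural crest list, the setting of PAX3 and PAX7, 12 of 16 genes were called higher and 2 lower, the median log2 fold change being 4.05. MSX1 and MSX2, homeobox genes of the border, had 14 and 8 and 8 and 11 counts in WT and 755 to 935 and 561 to 1067 in PCGF6-KO (differences on the log2 scale 6.10 and 6.27, adjusted p 2.45e-07 and 2.04e-05 by edgeR). TWIST1, a mesenchymal transcription factor, had 0 counts in WT and 108 to 255 in PCGF6-KO (adjusted p = 0.000202 by edgeR). GBX2 went from 5 and 10 counts to between 336 and 567 (5.75, adjusted p = 2.19e-06 by edgeR). The 2 lower genes, FOXD3, a crest specifier that pluripotent cells also express, and ZIC2, were outside the naming rule and were looked up after their values were seen. FOXD3 fell by 2.74 on the log2 scale and ZIC2 fell by 1.12 (adjusted p 1.15e-05 and 5.26e-05 by edgeR). The summed level of this list was 406 to 420 CPM in WT and 542 to 577 CPM in PCGF6-KO.

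In the paraxial mesoderm list, the tissue of origin of somites, 10 of 13 tested genes were called higher and 1 lower (RIPPLY2), the median log2 fold change being 1.99, and 7 were too low to test. MSGN1, a regulator of presomitic mesoderm, had 0 counts in the WT libraries, 37 and 22 in clone 1 and 155 and 93 in clone 2 (adjusted p = 0.00742 by edgeR). FOXC1 and FOXC2 had 2 or 3 counts in each WT library and 48 to 150 and 68 to 152 in PCGF6-KO (differences on the log2 scale 5.40 and 5.14, adjusted p 0.00101 and 0.000242 by edgeR), and TBX18 had 4 and 0 counts in WT and 54 to 94 in PCGF6-KO. The RIPPLY2 call was lost with DESeq2 and without either WT library or the first clone 2 library. The muscle determination genes MYF5 and MYOD1, which act after PAX3 and PAX7 and were named after their values were seen, had at most 4 counts in any library. The summed level of the list was 19.2 to 19.8 CPM in WT and 48 to 84.5 CPM in PCGF6-KO.

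In the intermediate mesoderm and kidney list, the setting of PAX2 and PAX8, 8 of 10 tested genes were called higher and 0 lower by edgeR and by DESeq2, with 9 higher and 0 lower at an unadjusted p under 0.05, and the median log2 fold change was 5.00. GDNF, the growth factor that signals to the ureteric bud, had 0 counts in WT and 98 to 164 in PCGF6-KO (adjusted p = 4.4e-05 by edgeR), and ITGA8, an integrin of kidney mesenchyme, had 0 counts in WT and 64 to 97 (adjusted p = 2.03e-05 by edgeR). EMX2 had 0 and 2 counts in WT and 29 to 77 in PCGF6-KO, and GATA3 went from 15 and 11 counts to between 240 and 468 (log2 fold change 4.63, adjusted p = 3.43e-05 by edgeR). The summed level of this list was 219 to 226 CPM in WT and 322 to 342 CPM in PCGF6-KO. PAX2 and PAX8 differed in direction in the same libraries.

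In the pancreatic islet list, the setting of PAX4 and PAX6, all 5 tested genes were called higher, the median log2 fold change being 3.59, and 4 were too low to test, NEUROG3 and NEUROD1 (named after their values were seen) among them. INSM1, a zinc finger gene of endocrine and neural progenitors, rose from 10 and 7 counts in WT to between 112 and 186 in PCGF6-KO, and ISL1 from 8 and 5 to between 52 and 156. Without the first WT library 3 and not 5 genes were called. By edgeR 0 were lower, also at an unadjusted p under 0.05, and 0 by DESeq2. The summed level was 3.38 to 3.42 CPM in WT and 18.5 to 24.2 CPM in PCGF6-KO.

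The remaining lists held fewer called genes. In the eye and forebrain list, 2 of 5 tested genes were called higher and 2 lower, the median log2 fold change being 0.12 and the summed level 402 to 403 CPM in WT and 188 to 283 CPM in PCGF6-KO. OTX2, a forebrain regulator that pluripotent cells also express, fell from 1173 and 1203 counts to between 490 and 574 (log2 fold change −1.26, adjusted p = 2.52e-06 by edgeR). SOX2, which pluripotent cells share with neural progenitors, differed by −0.69 on the log2 scale (adjusted p = 0.0178 by edgeR). It was not called in clone 1 (−0.41) and was called in clone 2 (−1.04), and the clones differed from each other by −0.63 (adjusted p = 1.33e-08 by edgeR). Its pooled call was lost without either WT library or without the first clone 2 library, with values from −0.69 to −0.57. The count of higher genes was 1 without either WT library or either clone 2 library, and that of lower genes 1 without either WT library or the first clone 2 library. In the thyroid list, the setting of PAX8, 1 of 4 tested genes was called higher and 0 lower by edgeR and by DESeq2, also at an unadjusted p under 0.05, the median log2 fold change being 0.10. When both clones were averaged after a separate estimate for each, 1 thyroid gene was called lower. SLC5A5, the iodide transporter gene, named after its values were seen, was called lower in clone 2, with 21 and 31 counts in WT, 21 in each clone 1 library and 7 and 5 in clone 2. The summed level of the thyroid list was 3.25 to 4.13 CPM in WT and 3.25 to 4.86 CPM in PCGF6-KO. The call of the 1 gene higher in PCGF6-KO was lost without the first WT library. In the B cell list, the setting of PAX5, 2 of 8 genes were tested and 0 were called by edgeR or DESeq2, or had an unadjusted p under 0.05, the median log2 fold change being 0.39. The B-cell markers MS4A1 and VPREB1, named after their values were seen, had 0 counts in all 6 libraries, and the list summed to 5.57 to 5.9 CPM in WT and 5.02 to 6.36 CPM in PCGF6-KO. The neural crest, mesoderm, kidney and islet genes thus rose in the libraries in which PAX2, PAX3 and PAX7 rose, and the part of cells of such types in the PAX values was not tested.

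**Figure D4:**
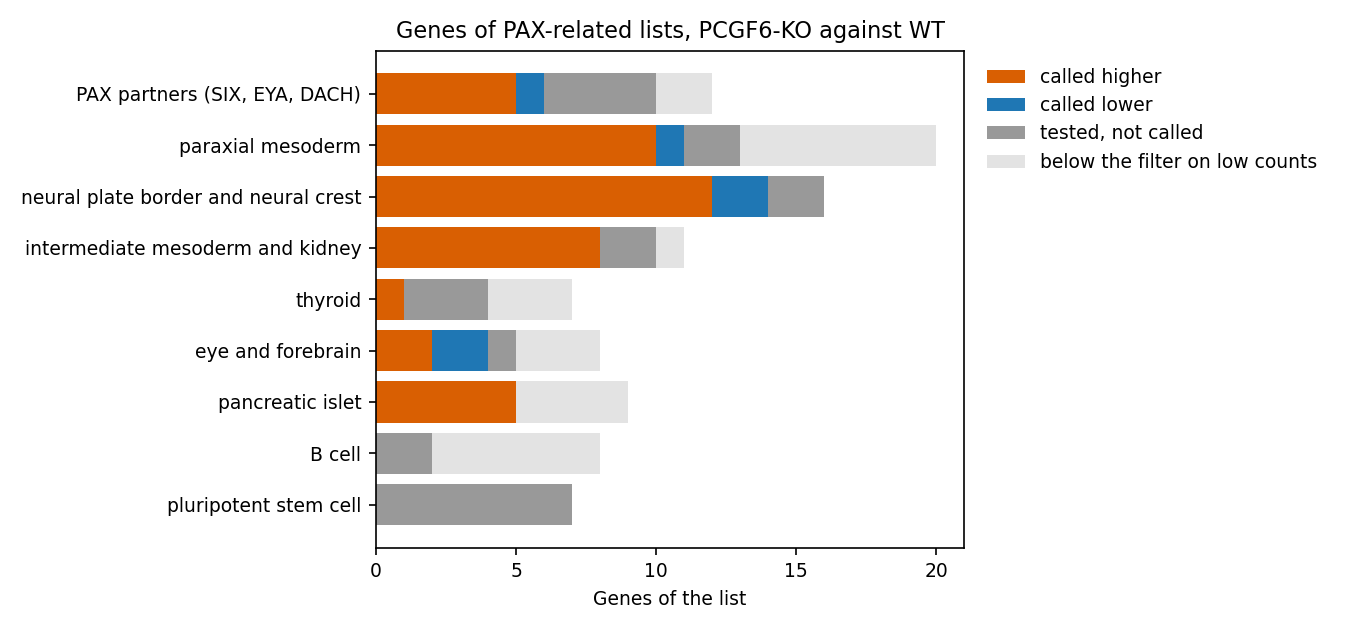
Number of genes in each of 9 lists that were called higher, called lower, not called or too low to test in PCGF6-KO against WT. The neural crest list has 12 genes called higher of 16, the kidney list 8 of 11, the paraxial mesoderm list 10 of 20, and the pluripotent list 0 of 7.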

How the data were processed

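RNA was measured in 6 libraries, 2 each of WT PGP1 iPSCs and of PCGF6-KO clones 1 and 2, and ChIP-seq was not analysed here. The authors trimmed reads with Trim Galore (0.6.2), aligned them to GRCh38 with HISAT2 (2.1.0) and used featureCounts to count reads on each gene. The deposited values were raw whole-number counts, used as they stood. The annotation release and strand setting are not given in the sources used here. The gene lengths deposited beside the counts served for RPKM. There were 0 columns of other samples.

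Genes were filtered with filterByExpr by genotype (17672 of 57133 kept) and scaled by TMM. The quasi-likelihood test of edgeR (4.0.16, limma 3.58.1, R 4.3.3) compared 4 PCGF6-KO with 2 WT libraries, and a fit with 3 groups compared the clones. Calls required a Benjamini-Hochberg adjusted p, taken over all tested genes, below 0.05 with a log2 fold change beyond 0.6 in size. The test was checked on simulated counts, with changes of 2 on the log2 scale in genes with a mean above 2 CPM. Most tested PAX genes were below that level, so the check does not cover them. Ratios carry conditional exact binomial intervals at 95%. Replicates differed by more than counting error (chi-square over its degrees of freedom 2.4 for WT, 4.5 for clone 1, 3.21 for clone 2).

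Named were all members, PCGF6, SOX2, called genes within 100 kb of a member, the 3 genes most like PAX3, PAX8 and PAX8-AS1, and up to 4 called genes per list with the largest change and a mean over 1 log2 CPM. SLF2, PSD4, ELP4, FOXD3, ZIC2 and RIPPLY2 were singled out after their values were seen. Some genes that the rule names are not reported here. Members and lists were chosen with earlier results of these data known. The alternatives tried were a DESeq2 (1.42.0) fit, RLE factors, upper-quartile normalization (chosen after seeing the data), other filters and thresholds, a replicate block, the mean of the clones, and leaving out each library. Positions came from GENCODE release 44, start-site windows from RefSeq.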

Additional observations from a re-analysis of the deposited data

Results flagged for a closer look

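PAX2, PAX3 and PAX5 differed between the knockout clones by the test of the difference itself, with adjusted p of 0.0116, 0.00128 and 0.0468 by edgeR, all 3 higher in both clone 2 libraries than in both clone 1 libraries. DESeq2 kept PAX3 alone.

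Within the 4 PCGF6-KO libraries, 1 library stood away from the other 3 for 3 members by Dixon's test at 95%, which takes the gap to the nearest library over the whole range. For PAX8-AS1 the ratio was 0.911, with 3 counts in the first clone 2 library and 1 in each of the others. For PAX6 it was 0.842, with 10 counts in the second clone 2 library and 17 to 19 in the others. For PAX4 it was 1, with 1 count against 0, 0 and 0. Chance gives such a gap in about 1 in 20 groups, and at 1 to 3 counts a gap is a step of single reads.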

How the results depend on the processing

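With 2 libraries per group and members at 1 to 300 counts, the precision is that of the counts, and leaving out a library leaves 1 sample in its group, which is then assumed to vary like the others. Requiring at least 10 counts in every library left 0 PAX genes higher and 1 lower against WT, in PCGF6-KO and in each clone, since 1 PAX gene, PAX9, is tested then, and between the clones 0 PAX genes and 382 genes in all were higher. With DESeq2, 3 PAX genes were higher and 0 lower in clone 1 against WT, and clone 2 against clone 1 had 1 PAX gene higher and 407 genes in all higher and 403 lower, where edgeR gave 659 and 731. By adjusted p alone, all genes called numbered 4266 higher and 3736 lower in clone 1, 4629 and 4275 in clone 2, 1883 and 1559 between the clones, and 2927 lower in PCGF6-KO.

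Leaving out each library in turn gave 0 to 2 PAX genes lower in PCGF6-KO against WT and 0 to 2 in clone 1 against WT, and 1 to 3 higher in clone 2 against clone 1. PAX7 changed sign between the clones without the first clone 1 library (log2 fold change −0.05, adjusted p = 0.952 by edgeR) and was at 0.26 without the second. The cause was not tested. With at least 10 counts in every library, the genes called higher fell from 12 to 4 in the neural crest list, 10 to 3 in paraxial mesoderm, 8 to 3 in kidney, 5 to 1 in the islet and 5 to 2 among the partners, fewer being tested. Between equal replicate numbers, deviations correlated across 15104 genes at Pearson r = 0.06, 0.07 and 0.19 (Spearman 0.12, 0.11 and 0.24). The values were low but all positive, the last of each being clone 1 with clone 2. Whether the numbers pair the libraries cannot be told from them. With the number as a block, PAX5 in PCGF6-KO against WT stood at 2.03 on the log2 scale (adjusted p = 0.0511 by edgeR), and 1 eye and forebrain gene in place of 2 was called higher and 0 paraxial mesoderm genes in place of 1 lower. No other PAX call changed. RLE, upper-quartile normalization and no filter left every PAX call against WT on its side of the threshold.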
